A study of Drosophila melanogaster with 3 samples.

Results

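The regions described are the triple sites of the long chromosome arms, places where Mod(mdg4) of any isoform, its 2.2 isoform and L(3)mbt were all found in Kc167 cells. They were chosen by overlap: a peak of the BTB antibody on 2L, 2R, 3L, 3R or X was taken when it shared at least 1 bp with a peak of the 2.2 antibody and at least 1 bp with a peak of the L(3)mbt antibody. This gave 436 of the 6144 BTB peaks on these arms, or 7.1% (95% Wilson interval 6.48 to 7.77%), and of the 7621 BTB peaks in all. That share follows from the rule and is a description, and so is every count of overlaps below.

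Kc167 is an embryonic cell line of Drosophila melanogaster. It was profiled by chromatin immunoprecipitation and sequencing with 3 antibodies, against Mod(mdg4)2.2, against the BTB part that all Mod(mdg4) isoforms have, and against L(3)mbt. There was 1 library per antibody, the cells had the same culture and fixation, per the labels, and no treatment is named. The data are 1 peak list per antibody, with 2846 peaks for 2.2, 7621 for BTB and 3352 for L(3)mbt. With no replicate library no difference below has a replicate check and none was tested. The lists hold no reads, so depth is unknown. Intervals are 95% Wilson intervals that cover counting error only and take peaks as independent, which neighbouring peaks are not.

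Insulators are DNA elements that limit contact between enhancers and promoters and help to fold the chromosome. Mod(mdg4) is a family of insulator cofactors made by trans-splicing: every isoform has the same N-terminal BTB domain, through which the proteins bind each other, and a C-terminal part of its own. The 2.2 isoform, also called Mod(mdg4)67.2, joins Su(Hw) and CP190 at gypsy-type insulators. L(3)mbt carries MBT repeats, which bind methylated lysines of histone tails, and takes part in repressor complexes; larvae without it grow brain tumours in which germline genes are switched on. A BTB peak therefore marks Mod(mdg4) of any isoform, and a 2.2 peak marks the gypsy-type isoform.

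Each peak carries the authors' score, the peak caller's own value, which starts just above 100. Many peaks have exactly 3100 and a few slightly more. Scores of 3100 or more are treated as tied and are called the score ceiling. Scores serve only as ranks within a list, and a percentile is the rank among all peaks of that list.

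The triple sites ranked high in the BTB list and, at the median, near the middle of the 2.2 and L(3)mbt lists. Among the 2.2 peaks of the long arms alone they ranked lower, at the 34.97th percentile. Their BTB scores ran from 100.7 to 3190 with a median at the ceiling, which is the 87.1th percentile. Their 2.2 scores ran from 100.8 to 3191 with a median of 449.5, the 47.3th percentile, against a median of 1080 over all 2.2 peaks of the arms. Their L(3)mbt scores ran from 100.9 to 3219 with a median of 355.6, the 56.7th percentile, against 312.8 over all L(3)mbt peaks of the arms. These medians were taken list by list, so they do not show which partner ranks went with a leading BTB peak. The ranges of all 3 lists were wide.

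At the BTB score ceiling stood 220 of the 436 triple sites (50.5%, 45.8 to 55.1%), against a background of 30.7% over all BTB peaks of the arms. The 2.2 peak was at the ceiling at 110 triple sites (25.2%), against 32.6% of all 2.2 peaks on the arms. It scored 100 to 200 at 123 (28.2%), against 17.4%. The L(3)mbt peak was at the ceiling at 9 triple sites (2.06%, against 1.63%) and scored 100 to 200 at 106 (24.3%, against 30.7%). These counts take a shared partner peak once per triple site. With each 2.2 peak counted once, 96 of 386 were at the ceiling (24.9%). Among the other 2.2 peaks of the arms 619 of 1809 were (34.2%). For L(3)mbt these were 8 of 389 (2.06%) and 39 of 2501 (1.56%). Only 2 triple sites reached the ceiling in every list, and 1 scored under 200 in every list.

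The score of a BTB peak said less about the score of its 2.2 peak at triple sites than elsewhere. Spearman's rank correlation between BTB and 2.2 scores was 0.27 over the 436 triple sites and 0.78 over the 1758 BTB peaks that met 2.2 and no L(3)mbt. Between 2.2 and L(3)mbt scores at triple sites it was -0.14. These are descriptions across peaks of the same libraries, and sites that share a partner peak share its score.

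**Figure D1:**
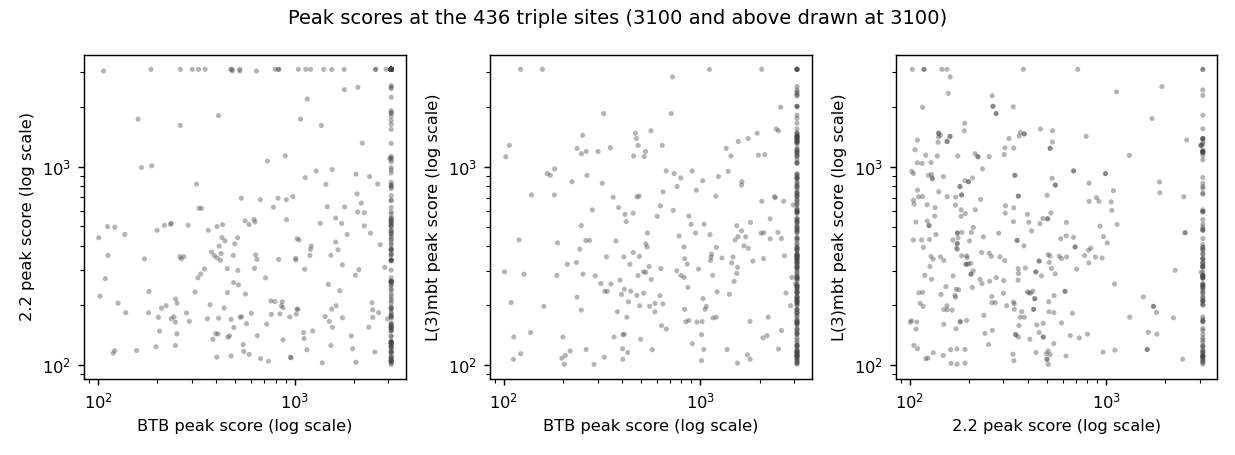
Peak scores at the 436 triple sites, with 1 point per site and both axes on a log scale, for BTB against 2.2, BTB against L(3)mbt, and 2.2 against L(3)mbt. Scores of 3100 or more are drawn at 3100. The 220 sites at the BTB ceiling form the right-hand column of the first panel and spread over the whole range of 2.2 scores.

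The divergence was seen at the BTB ceiling and, for weak 2.2 peaks, in part below it. Of the 220 triple sites at the BTB ceiling, 91 had a 2.2 peak at the ceiling too (41.4%, 35.1 to 47.97%). Among 663 ceiling BTB peaks that met 2.2 and no L(3)mbt, 578 did (87.2%, 84.4 to 89.5%). Weak 2.2 peaks, scoring 100 to 200, were found at 50 of these 220 triple sites (22.7%, 17.7 to 28.7%) and at 11 of the 663 other sites (1.66%, 0.929 to 2.95%). The remaining 2.2 peaks at such triple sites were 39 with scores of 200 to 500 and 40 with scores of 500 to 3100. The median 2.2 score was 882.5 at the triple sites and 3100 at the others. Below the BTB ceiling the shares with 2.2 at the ceiling were low in both classes and had no common order. At BTB scores of 500 to 3100 they were 12 of 129 triple sites (9.30%, 5.40 to 15.6%) and 92 of 633 sites without L(3)mbt (14.5%, 12.0 to 17.5%). At 200 to 500 the order was opposite, with 6 of 65 (9.23%, 4.30 to 18.7%) and 9 of 288 (3.13%, 1.65 to 5.83%). At 100 to 200 they were 1 of 22 (4.55%, 0.807 to 21.8%) and 13 of 174 (7.47%, 4.42 to 12.4%). The intervals overlapped in each of these 3 bands. Weak 2.2 peaks differed more at BTB scores of 500 to 3100 and of 200 to 500, but not at 100 to 200. At BTB scores of 500 to 3100 they were found at 84 BTB peaks, of which 44 were among the 129 triple sites. That was 52.4% of the 84, against 35.5%, 8.32% and 11.5% in the rising 2.2 bands above. At 200 to 500 weak 2.2 peaks were found at 79, of which 23 were among the 65 triple sites. That was 29.1%, against 16.6%, 10.2% and 40.0%, the last from 15 peaks. At 100 to 200 they were found at 60, of which 6 were among the 22 triple sites. That was 10.0%, against 12.9%, 10.8% and 7.14%.

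The gap appeared on every arm. The share of BTB ceiling peaks whose 2.2 peak was also at the ceiling was 44.8% with L(3)mbt and 81.7% without on 2L, 43.6% and 87.8% on 2R, 43.4% and 90.7% on 3L, 35.8% and 84.97% on 3R, and 41.3% and 89.1% on X. The triple sites behind these shares numbered 29, 39, 53, 53 and 46 in the same order. Split by BTB width, the gap was present in all but the narrowest of 4 width classes. The 2 wider classes held most of the BTB ceiling peaks. Among BTB ceiling peaks of 650 to 893 bp, 23 of 53 triple sites (43.4%, 30.95 to 56.7%) and 282 of 310 sites without L(3)mbt (90.97%, 87.3 to 93.7%) had 2.2 at the ceiling. Among those of 894 bp or more the shares were 64 of 158 (40.5%, 33.2 to 48.3%) and 173 of 203 (85.2%, 79.7 to 89.4%). The narrower classes held few triple sites at the BTB ceiling. At 543 to 649 bp the shares were 2 of 7 (28.6%, 8.22 to 64.1%) and 113 of 135 (83.7%, 76.6 to 88.98%). At 271 to 542 bp the order was opposite, with 2 of 2 (100%, 34.2 to 100%) and 10 of 15 (66.7%, 41.7 to 84.8%). With the centres of the partner peaks required within 200 bp of the BTB centre, they were 44 of 122 (36.1%, 28.1 to 44.9%) and 456 of 521 (87.5%, 84.4 to 90.1%). BTB peaks at the ceiling are tied, so any difference in BTB strength above it is not seen. This matched comparison and the bands of score were set up after the values had been seen.

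**Figure D2:**
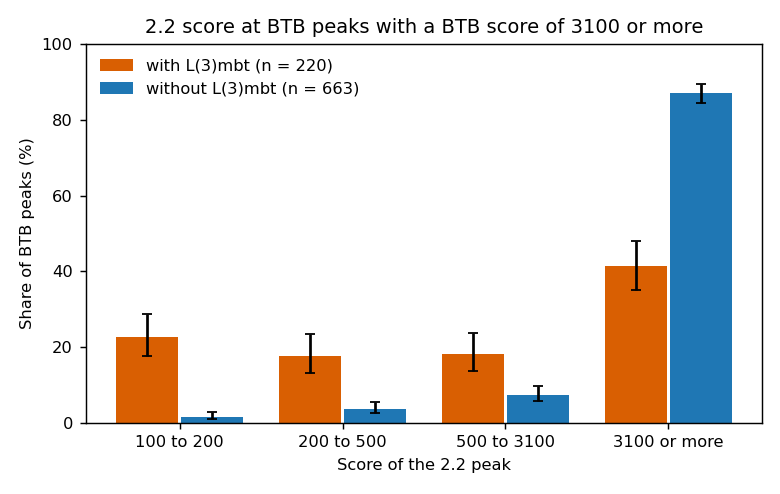
Share of BTB peaks in each band of 2.2 score, among BTB peaks of the long arms with a BTB score of 3100 or more that met a 2.2 peak. Orange bars are the 220 triple sites, blue bars the 663 sites without L(3)mbt, and error bars are 95% Wilson intervals. In the highest band the bars stand at 41.4% and 87.2%, and in the lowest at 22.7% and 1.66%.

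Read in the opposite direction, L(3)mbt was most frequent where a leading BTB peak held a weak 2.2 peak. Among BTB peaks at the ceiling, L(3)mbt met 50 of the 61 with a 2.2 score of 100 to 200 (81.97%, 70.5 to 89.6%). It met 39 of 64 at 2.2 scores of 200 to 500 (60.9%, 48.7 to 71.9%) and 40 of 89 at 500 to 3100 (44.9%, 35.0 to 55.3%). Where 2.2 was at the ceiling too it met 91 of 669 (13.6%, 11.2 to 16.4%). Where there was no 2.2 peak it met 496 of 1006 (49.3%, 46.2 to 52.4%). In these lists the share at weak 2.2 peaks was thus above that at leading BTB peaks with no 2.2 peak at all. The share at the strongest 2.2 peaks was below it. The intervals did not overlap in either case, but they take peaks as independent, and no difference was tested.

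The same order was not seen at the weakest BTB peaks. At BTB scores of 100 to 200, L(3)mbt met 6 of 60 BTB peaks with a 2.2 score of 100 to 200 (10.0%, 4.66 to 20.1%), and 336 of 959 with no 2.2 peak (35.04%, 32.08 to 38.11%). At BTB scores of 200 to 500 the shares were 29.1%, 16.6%, 10.2% and 40.0% from the lowest 2.2 band to the ceiling. The last rested on 15 peaks, and the share with no 2.2 peak was 45.1%. At BTB scores of 500 to 3100 the share was again highest at weak 2.2 peaks, with 44 of 84 (52.4%, 41.8 to 62.7%). It was 35.5% at 2.2 scores of 200 to 500, and 40 of 481 at 500 to 3100 (8.32%, 6.17 to 11.1%). With 2.2 at the ceiling it was 11.5%, and with no 2.2 peak 508 of 1083 (46.9%, 43.95 to 49.9%). Width moved with part of this pattern: BTB ceiling peaks had a median width of 1089 bp where 2.2 scored 100 to 200, 786 bp where 2.2 was at the ceiling and 914.5 bp where there was none. Within each of the 2.2 bands, BTB ceiling peaks that met L(3)mbt were also wider than those that did not. The medians were 1132 and 984 bp at 2.2 scores of 100 to 200. With 2.2 at the ceiling they were 1084 and 752.5 bp, and with no 2.2 peak 991.5 and 837.5 bp. When the L(3)mbt centre had to lie within 200 bp of the BTB centre, the shares at the BTB ceiling were 55.7% (43.3 to 67.5%) for 2.2 scores of 100 to 200, 8.37% (6.50 to 10.7%) for 2.2 at the ceiling and 28.4% (25.7 to 31.3%) with no 2.2 peak. The part of width in the order was not tested further.

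**Figure D3:**
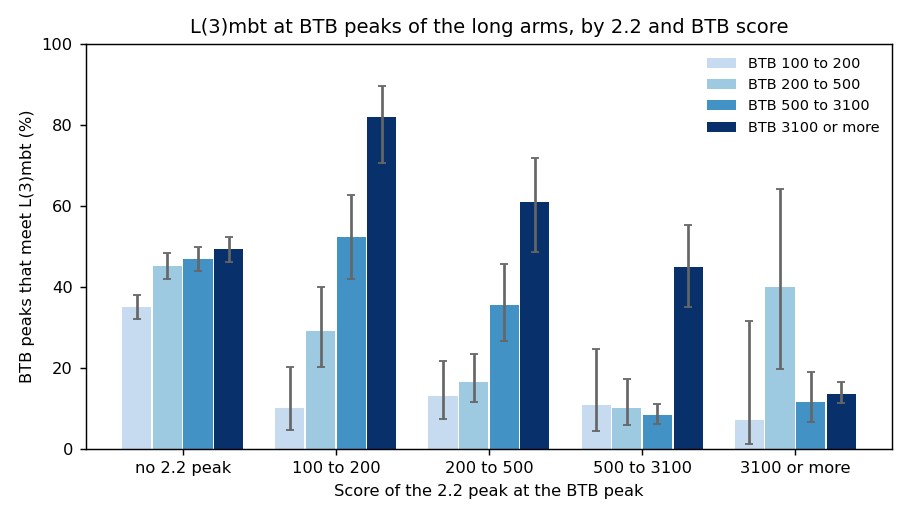
Share of BTB peaks on the long arms that met an L(3)mbt peak, by the score of the 2.2 peak (x axis) and of the BTB peak (shade), with 95% Wilson intervals. At the BTB ceiling the share goes from 81.97% at the weakest 2.2 peaks to 13.6% at 2.2 peaks of 3100 or more, with 49.3% where no 2.2 peak was met. Some bars rest on few peaks, such as 14 and 15 in the group of 3100 or more.

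The L(3)mbt peaks differed less with the 2.2 score. Among triple sites at the BTB ceiling, the median L(3)mbt score was 294.2 (interquartile range 166.1 to 668.0) for the 91 with 2.2 at the ceiling and 440.7 (230.7 to 915.2) for the other 129. It was 362.7 (204.7 to 845.5) over all 220, and 438.8 (219.3 to 1036) at the 496 BTB ceiling peaks with L(3)mbt and no 2.2. These ranges overlapped widely.

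The strongest triple sites, by mean percentile over the 3 lists, show how the peaks lay on each other. At 2L:21214679-21215637 all 3 scores were 3100, and the 2.2 and L(3)mbt centres lay 81 and 40 bp from the BTB centre, on opposite sides. At 3R:3710920-3713022 all 3 scores were also 3100, with centres 105 bp from BTB for 2.2 and 483 bp for L(3)mbt. These were the only sites at the ceiling in every list, the first compact and the second with a BTB peak 2103 bp wide, of which the L(3)mbt peak covered 1439 bp.

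In the next sites BTB and 2.2 were again at 3100 and L(3)mbt was below the ceiling. At 3R:12623953-12624927 L(3)mbt scored 2441, and all 3 centres lay within 50.5 bp. At 3R:7034337-7036341 it scored 2293, from a peak of 3331 bp whose centre was 741 bp from that of BTB. At 3L:505252-506595 it scored 1821 and was centred 164 bp away. The position of L(3)mbt relative to BTB thus differed widely among sites of like rank. At 3R:484625-485886 the L(3)mbt score was 1554, with a centre 67.5 bp off. At 2R:12010758-12012020 it was 1390, where the L(3)mbt centre was 1840 bp off and the peaks of both lists had 203 bp in common. At 2R:3420410-3421476 it was 1383, at 261.5 bp. The highest site of X, at X:18528598-18529838, had BTB and 2.2 at 3100 and L(3)mbt at 1178, with all centres within 36.5 bp.

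The weakest triple sites were narrow. At 3L:5915134-5915676 BTB scored 196.95, 2.2 scored 123.6 and L(3)mbt scored 108.5, the only site under 200 in every list. At 2R:7253821-7254481 the scores were 205.5, 148.2 and 111.8 in the same order. At 3L:10849512-10850103 they were 202.7, 174.0 and 101.1. Low rank did not always go with scattered peaks, for the 3 centres of the last site lay within 37.5 bp. At 3L:20191146-20191750 the scores were 401.6, 109.5 and 121.0, with centres within 95.5 bp. At X:4996620-4997173 they were 111.7, 499.3 and 107.0, and both partners were broad peaks, centred 465 bp (2.2) and 553.5 bp (L(3)mbt) to the same side.

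**Figure D4:**
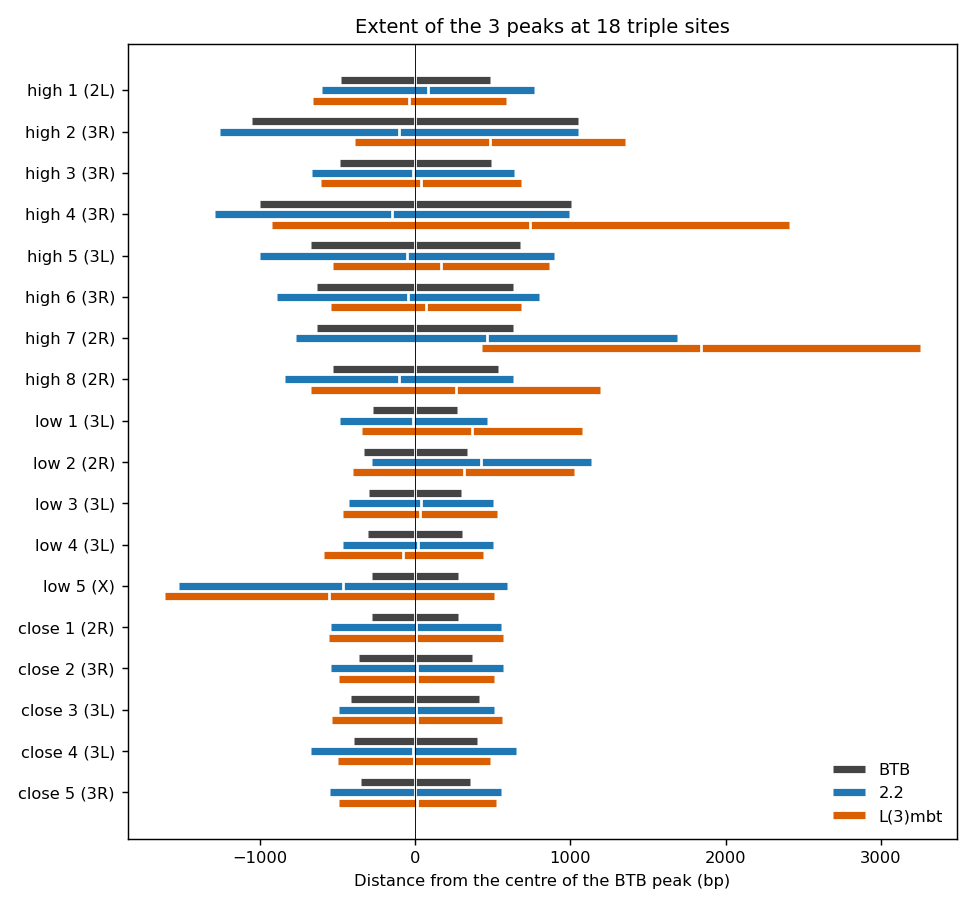
Extent of the BTB, 2.2 and L(3)mbt peaks, drawn from the BTB centre in bp, at the 8 triple sites with the highest and the 5 with the lowest mean percentile and the 5 with the closest centres. White ticks mark peak centres. In the group of closest centres the ticks stack within 5 to 12.5 bp, while among the strongest sites the L(3)mbt centre lies up to 1840 bp off.

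Over all triple sites the 3 peaks mostly lay over a common core. At 434 of the 436 all 3 peaks had at least 1 bp in common, and the common stretch had a median of 810 bp (interquartile range 644.5 to 994.3 bp). Both partners had to meet the same BTB peak, so that count follows in part from the rule. The BTB peak, with a median width of 894.5 bp, lay wholly inside the 2.2 peak at 314 sites (72.0%) and wholly inside the L(3)mbt peak at 285 (65.4%). The median width of the partners was 1371 bp for 2.2 and 1324 bp for L(3)mbt. Together the 3 peaks covered a median of 1712 bp.

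The centres coincided closely at some sites and not at others. The median distance from the BTB centre was 97.5 bp to 2.2 (interquartile range 41.5 to 323.1 bp) and 142 bp to L(3)mbt (56 to 423.4 bp), and 2.2 and L(3)mbt were 156.8 bp apart (49.9 to 446.8 bp). At BTB peaks with 2.2 and no L(3)mbt the 2.2 centre was nearer, at a median of 39.5 bp (15.5 to 137.4 bp). It lay within 200 bp at 79.6% of these (77.6 to 81.4%) and at 65.6% of the triple sites (61.0 to 69.9%). At BTB peaks with L(3)mbt and no 2.2 the median distance to the L(3)mbt centre was 167.5 bp (44.5 to 463.3 bp), close to that at triple sites. L(3)mbt lay within 200 bp at 53.7% of these (51.4 to 56.1%) and at 57.6% of the triple sites (52.9 to 62.1%), so the intervals overlapped. BTB peaks were wider at triple sites than at the sites with 2.2 alone, with medians of 894.5 and 632.5 bp, and the part of width in the longer distance was not tested.

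Sorted by the 200 bp distance, 209 triple sites had both partners centred on BTB (47.9%, 43.3 to 52.6%). At 77 only 2.2 was centred (17.7%), at 42 only L(3)mbt (9.63%), and at 108 neither was (24.8%). The BTB ceiling was reached at 58.4% of the sites with both centred (51.6 to 64.8%), 38.96% of those with L(3)mbt off centre (28.8 to 50.1%), 50% of those with 2.2 off centre (35.5 to 64.5%) and 43.5% of those with both off (34.6 to 52.9%). The 2.2 score was highest where 2.2 was off and L(3)mbt was centred, with a median of 1754 against 397.7 where both were centred. These 42 sites also had the widest 2.2 peaks, at a median of 1864 against 1204 bp, and the part of width in this was not tested.

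The closest stacks were not the strongest sites. At 2R:14540126-14540679 the 3 centres lay within 5 bp, with scores of 233.6 for BTB, 512.4 for 2.2 and 329.6 for L(3)mbt. At 3R:13227976-13228706 they lay within 11 bp, with scores of 3100, 337.5 and 207.9. At 3L:14266965-14267787 they lay within 11.5 bp, with scores of 3100, 776.4 and 356.8. Of these 5 stacks, 4 had BTB at the ceiling but 1 had 2.2 there. That was 3L:7337945-7338733, with centres within 12 bp and an L(3)mbt score of 112.2. At 3R:18619523-18620226 the centres lay within 12.5 bp and the scores were 3100, 517.6 and 354.6. In all, the 3 centres lay within 50 bp of each other at 43 sites (9.86%), within 200 bp at 190 (43.6%), and spanned over 1000 bp at 44 (10.1%).

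**Figure D5:**
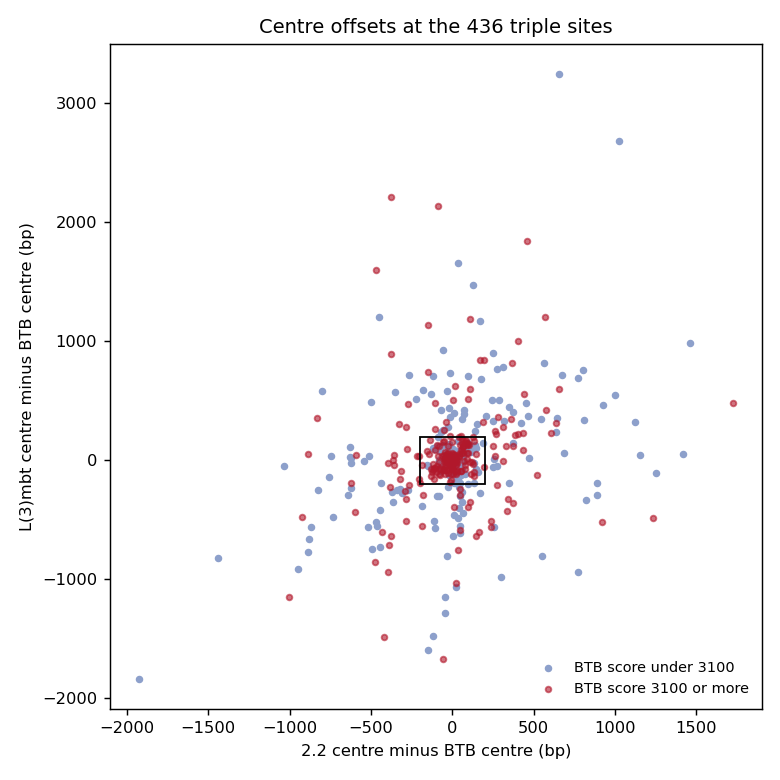
Signed distance of the 2.2 centre (x axis) and the L(3)mbt centre (y axis) from the BTB centre, in bp, with 1 point per triple site and red for sites at the BTB score ceiling. The box marks 200 bp to each side and holds 209 of the 436 sites. Points far from the box lie more often in the quadrants where both partners are off to the same side.

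Where both partners were off centre they tended to be off together. At 81 of the 108 such sites they lay on the same side of the BTB centre (75%, 66.1 to 82.2%). Triple sites under the same pair of partner peaks were each counted, so these sites are not independent. An example is 2L:13512684-13513757 and 2L:13514068-13514709, which share both partners and lie to opposite sides of their centres. Many of the shifted partners spanned several BTB peaks. The 2.2 peak met another BTB peak at 98 of the 150 sites where it was off centre (65.3%, 57.4 to 72.5%) and at 17 of the 286 where it was centred (5.94%, 3.74 to 9.31%). For L(3)mbt these were 100 of 185 (54.1%, 46.9 to 61.1%) and 21 of 251 (8.37%, 5.54 to 12.5%). The off-centre middle of the 2.2 peak fell inside the triple site's own BTB peak at 70 sites, inside another BTB peak at 42 and inside no BTB peak at 38. For L(3)mbt these counts were 87, 43 and 55.

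Because partners can be shared, 436 triple sites are fewer separate places. They used 386 of the 2195 2.2 peaks of the arms (17.6%, 16.0 to 19.2%). From the L(3)mbt list they used 389 of 2890 (13.5%, 12.3 to 14.8%). Joined wherever peaks of any list overlapped, they fell into 383 places with a median span of 1640 bp, of which 293 held exactly 1 peak of each list (76.5%, 72.0 to 80.5%). A place held 1 triple site in 334 cases, 2 in 46, 3 in 2 and 4 in 1.

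The place with 4 was 3L:14747703-14751636, where a 2.2 peak of 3824 bp with a score of 3040 lay over BTB peaks scoring 526.5, 639.5, 106.5 and 481.9 and over L(3)mbt peaks scoring 293.8 and 1282. It was a strong and broad 2.2 region over separate BTB peaks, the weakest of which scored 106.5. At 2R:10657655-10660352 a 2.2 peak at 3100 and an L(3)mbt peak at 1194 covered BTB peaks of 262.1, 301.5 and 525.2. At X:12648887-12652591 a 2.2 peak at 3100 and an L(3)mbt peak at 282.9 met BTB peaks of 185.7, 481.2 and 795.3. Another BTB peak there, at the ceiling, missed the L(3)mbt peak by 14 bp and so was not a triple site.

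At the triple sites of the 5 longest places the L(3)mbt peak was the widest of the 3. The longest was 2L:5976298-5985402, the extent of an L(3)mbt peak of 9105 bp, with 4 BTB peaks of which 1 was a triple site. The next were 3R:11818551-11826004 with 7454 bp and 2 triple sites, and X:5793007-5799219 with 6213 bp and 2. They were followed by 2L:6366473-6371818 with 5346 bp and 2R:9018626-9023715 with 5090 bp, with 1 triple site each. There the 2.2 peak began before the L(3)mbt peaks, which were 4374 and 3959 bp wide. The longest therefore were not those with most triple sites.

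The edge of the rule ran through few sites. The shortest overlap was 2 bp with 2.2, at 3R:16609249-16609733, then 6 bp with L(3)mbt at 2R:16963199-16963935 and 12 bp with 2.2 at 3R:15052052-15052541. At 3L:132236-132727 the 2.2 overlap was 15 bp, and at 3R:794808-796054 the L(3)mbt overlap was 17 bp. In all, 19 triple sites overlapped a list by under 100 bp. Just outside were the BTB peaks X:12650994-12652591 and 3R:18354109-18355073, which missed L(3)mbt by 14 and 15 bp. Those at 3R:6214477-6215293, X:7200531-7201165 and X:10495323-10496040 missed 2.2 by 17, 21 and 26 bp. There were 26 BTB peaks that met 1 list and missed the other by at most 200 bp.

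Part of the BTB strength of triple sites moved with peak width. Of the BTB peaks of the arms split into 4 width classes, 1.94% of the narrowest (271 to 542 bp) were triple sites, 4.06% of those of 543 to 649 bp, 8.10% of those of 650 to 893 bp, and 14.3% of those of 894 bp or more. Within the widest class 72.1% of triple sites and 62.5% of BTB peaks with 2.2 and no L(3)mbt were at the BTB ceiling. In the class of 650 to 893 bp the order was opposite, with 42.4% and 63.9%, and in that of 543 to 649 bp the shares were 11.3% and 23.4%. The higher ceiling share of all triple sites against the 37.7% of sites with 2.2 alone (35.5 to 40.0%) was thus not present at every width. Against BTB peaks with neither partner, the ceiling share of triple sites was higher in the widest class, 72.1% against 51.6%, and close in the class below, 42.4% against 39.8%. It was lower in the class of 543 to 649 bp, 11.3% against 14.0%, and higher in the narrowest, 6.67% against 2.36%, where 2 of 30 triple sites were at the ceiling. Of BTB peaks with L(3)mbt and no 2.2, 28.4% were at the ceiling (26.3 to 30.6%). By width these were 0.785%, 9.07%, 36.0% and 54.8% from the narrowest class to the widest. The share of triple sites was above these in each class, by little at 543 to 649 bp.

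The triple sites were spread over all arms. There were 53 on 2L (5.25% of its BTB peaks, 4.03 to 6.800%), 81 on 2R (6.67%, 5.401 to 8.217%), 102 on 3L (8.18%, 6.78 to 9.83%), 108 on 3R (7.31%, 6.09 to 8.75%) and 92 on X (7.70%, 6.32 to 9.35%). Per Mb these were 2.32, 3.84, 4.17, 3.87 and 4.11. The arm 2L was lowest by either measure, but its interval overlapped those of all the other arms, that of 3L only just. The share at the BTB ceiling was 48.1% to 54.7% on the 5 arms. The span of the 3 centres had medians from 190 bp on 2L to 332 bp on 2R.

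About as many triple sites stood alone in a window of 100 kb as shared one. Of 1189 windows, 311 held at least 1 and 224 exactly 1, so that 224 of the 436 triple sites had no other in their window. In joined places, 102 of the 436 had at least 1 other triple site. The most in a window was 6, at 2R:9800001-9900000 in 5 joined places among 19 BTB peaks, and at 3L:14700001-14800000 in 2 places among 9 BTB peaks, which includes the place with 4. There were 4 each at 2R:19500001-19600000, 3R:11800001-11900000 and X:17600001-17700000, and 1 more window tied with these. Neighbouring places with triple sites stood 212582 bp apart at the median, with quartiles of 68528 and 414117 bp, and 21 of 378 successive pairs were under 10 kb apart.

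The nearest BTB neighbour was often close, at a median of 2681 bp against 5328 bp for BTB peaks with 2.2 alone, 4203 bp with L(3)mbt alone and 5531 bp with neither. It was itself a triple site for 113 of 436 (25.9%, 22.03 to 30.23%), against a background of 7.55% over all BTB peaks of the arms. Much of this lay within joined places. When only BTB peaks of another joined place were considered, 35 of 436 had a triple site as nearest neighbour (8.03%, 5.83 to 10.96%). Over all BTB peaks this was 6.46% (5.87 to 7.10%). By this measure the nearest BTB peak lay at a median of 5668 bp from triple sites. It was 6602 bp for BTB peaks with 2.2 alone, 6215.5 bp with L(3)mbt alone and 5531 bp with neither. With peaks of the same place counted, 96 of the 436 nearest neighbours had 2.2 without L(3)mbt (22.02%, against 28.8% over all BTB peaks), 108 had L(3)mbt without 2.2 (24.8%, against 28.9%) and 119 had neither (27.3%, against 34.7%). For comparison, 56.3% of BTB peaks with 2.2 alone (53.9 to 58.6%) and 51.7% of those with L(3)mbt alone (49.4 to 54.1%) had a nearest neighbour of their own class, against those same backgrounds of 28.8% and 28.9%. These shares also count peaks of the same joined place. They thus stand beside the 25.9% of triple sites, not the 8.03%. Own-class shares of these classes with such peaks left out were not analysed here.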

How the data were processed

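Per the labels, 1 ChIP library was made per antibody. The submitters' processing notes name Bowtie 0.12.5 as aligner. Per the files, peaks are named in the manner of MACS; its version and settings, and the genome build, were not given in the sources used here. Control reads, per the series design text, were those of a previous Kc study; their part in the overlaps was not tested. Each score is the value that the authors deposited. Sequence names are those of release 5 of the fly assembly, while the gene table at hand is of release 6, so genes and bases at the sites were not analysed here. Positions count from 1.

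Overlaps, centre distances, joined places and neighbours were computed from the deposited lists with Python 3.11.15, numpy 2.4.6, pandas 2.3.3 and scipy 1.17.1, after a check of the code on made-up lists. A partner is the overlapping peak with the nearest centre. Arm length is the highest peak end in any list. The sites named are those with the highest (8) and lowest (5) mean percentile, the closest centres, the shortest overlaps and gaps, the highest of each arm, and the longest and fullest places and windows. The sites, classes and rules were chosen with earlier results of these data known.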

Additional observations from a re-analysis of the deposited data

How the results depend on the processing

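The number of triple sites depended on the rule. It was 403 when 50% of the shorter peak had to be shared and 466 when gaps of up to 200 bp were allowed, but 209 with centres within 200 bp, 284 with peaks set to 400 bp and 98 when the upper 50% by score of each list was used. The last setting cuts all 3 lists at once, and the part of each list in the drop was not tested. The share at the BTB ceiling was 58.4% with centres within 200 bp and 58.1% at 400 bp, where sites with 2.2 alone stood at 37.3% and 38.2%, values added after seeing the data. The median percentile in the 2.2 list went from 47.3 to 34.97 when ranked among the long arms alone, which leaves out the peaks of other sequences. The share of triple sites with a triple site as nearest neighbour was 8.03% when peaks of the same joined place were left out. The centre distances stayed within the 95% order-statistic intervals of their medians with an overlap of 50% of the shorter peak, the upper 50% by score and the partner of highest score. Joining over gaps of 200 bp gave 381 places. Depth is unknown, and with 1 library per antibody none could be left out. Peaks were not tested as replicates.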

Other observations

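On the long arms 7 joined places held 2.2 and L(3)mbt with no BTB peak. In each place at least 1 of the scores was under 200. The 2.2 score was highest at 2R:13683309-13684501, at 304.2, where L(3)mbt scored 107.1. The L(3)mbt score was highest at 2L:21477266-21480221, at 401.1, where 2.2 scored 101.4. The nearest BTB peak was between 1305 and 18714 bp away. A further 2 joined places held peaks of all 3 lists but no BTB peak that met both others.

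The longest stretches between neighbouring places with triple sites were 2.64 Mb on 2L, from 16526223 to 19165614, and 2.23 Mb on 2R, from 159198 to 2389425. Whether reads can be aligned over all of these stretches was not analysed here.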
